A study of Mus musculus with 4 samples.

Results

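The effect of 24 h of lipopolysaccharide (LPS, 100 ng/mL) was examined in mouse bone marrow-derived macrophages labelled Trpv4-null, by single-cell RNA sequencing on the 10x Genomics droplet platform. Cells were chosen by the library named in the deposited cell annotation: 6565 cells of the LPS library were set against 5485 cells of the untreated library, 12050 of the 27366 cells in the series. The marrow came from mice labelled Trpv4-null, aged 8 to 12 weeks, and was grown in recombinant M-CSF (50 ng/mL) in both groups. A wild-type (C57BL/6J) pair of libraries, treated in the same way, is used below only for comparison. The study names 3 mice per genotype, but the annotation gives no mouse for any cell and each condition is 1 library, so the values carry no replicate check, no test was possible and intervals cover counting error only.

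LPS is a cell wall component of gram-negative bacteria. Macrophages sense it through the receptor TLR4, whose adaptor MyD88 leads to NF-kB and to inflammatory cytokines and chemokines, and whose adaptor TRIF leads to type I interferon, which then acts back on the cells to switch on interferon-stimulated genes. TRPV4 is a mechanosensitive, calcium-permeable channel, and the series asks how it relates to NF-kB signalling.

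Levels are given as CPM, unique molecular identifiers (UMIs, each standing for 1 captured mRNA molecule) of a gene per 1000000 UMIs of the library. A log2 ratio is that of CPM plus 1, LPS over untreated, so it understates the ratio of genes near 1 CPM. Genes were compared where the higher library had at least 20 CPM and 30 UMIs, and 2-fold is used as a size, not as a test.

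UMIs of the targeted gene were found in both libraries labelled Trpv4-null. Trpv4 (chromosome 5, 114622152 to 114658421, minus strand, GRCm38) had 404 UMIs untreated (8.60 CPM, 95% interval 7.78 to 9.48) and 1049 UMIs after LPS (9.62 CPM, 9.05 to 10.2). The wild-type libraries had 5.83 CPM untreated and 2.07 CPM after LPS, below both libraries labelled Trpv4-null. Which exons the null allele lacks is not stated in the labels, and UMIs from elsewhere in the gene would check nothing. "The library labelled Trpv4-null" is therefore used for a label throughout. Its Trpv4 ratio of LPS over untreated was 1.12 (0.997 to 1.26) by library total, log2 0.15, and log2 0.70 with median-of-ratios size factors, and it lay between -0.25 and 0.56 in the 8 clusters, where it was below the level minimum.

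The libraries held 47000669 UMIs untreated and 109030958 after LPS, with a median of 7893 and 16041 UMIs per cell and a median of 6.13% and 3.19% mitochondrial UMIs. Mean UMIs per cell were 1.94 times higher after LPS. Whether this comes from RNA content or from the depth of sequencing was not tested. All 14 macrophage markers on a list of this cell type reached 20 CPM in both libraries, among them the lysozyme gene Lyz2 with 19361 and 14336 CPM. Neutrophil markers were scarcer: 5 of the 10 found among the genes reached that level untreated and 1 after LPS, and their summed level was 370 and 124 CPM. Of 6 B cell markers present only Ighm passed it, and neither of the 2 T or NK cell markers present did. The pair of libraries shared 7 barcode sequences, and leaving those cells out gave 462 and 1345 genes in place of the 463 and 1348 below.

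Of 6340 genes compared, 463 (7.30%) were at least 2-fold higher after LPS and 1348 (21.3%) at least 2-fold lower. That split depends on the scaling. The genes that were higher held 7.47% of the UMIs of the untreated library and 31.4% of those of the LPS library. The median gene stood at a log2 ratio of -0.42 by library total, and median-of-ratios size factors moved it up by 0.59. They gave 972 genes (15.3%) higher and 508 (8.01%) lower, and TMM factors 930 (14.7%) and 522 (8.23%). Counted as UMIs per cell, 1702 genes (26.8%) were higher and 318 (5.02%) lower. All 463 higher genes remained at least 2-fold higher with median-of-ratios size factors, and 508 of the 1348 lower genes remained lower. Ratios below are by library total. A median-of-ratios log2 lies up to 0.61 above each, and all 264 named genes at 2-fold or more kept their direction under these 3 other scalings. Their size did not always hold. Of the 111 named lower genes, 77 remained at least 2-fold lower with median-of-ratios size factors. All 153 named higher genes remained at least 2-fold higher under the 3 scalings.

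**Figure D1:**
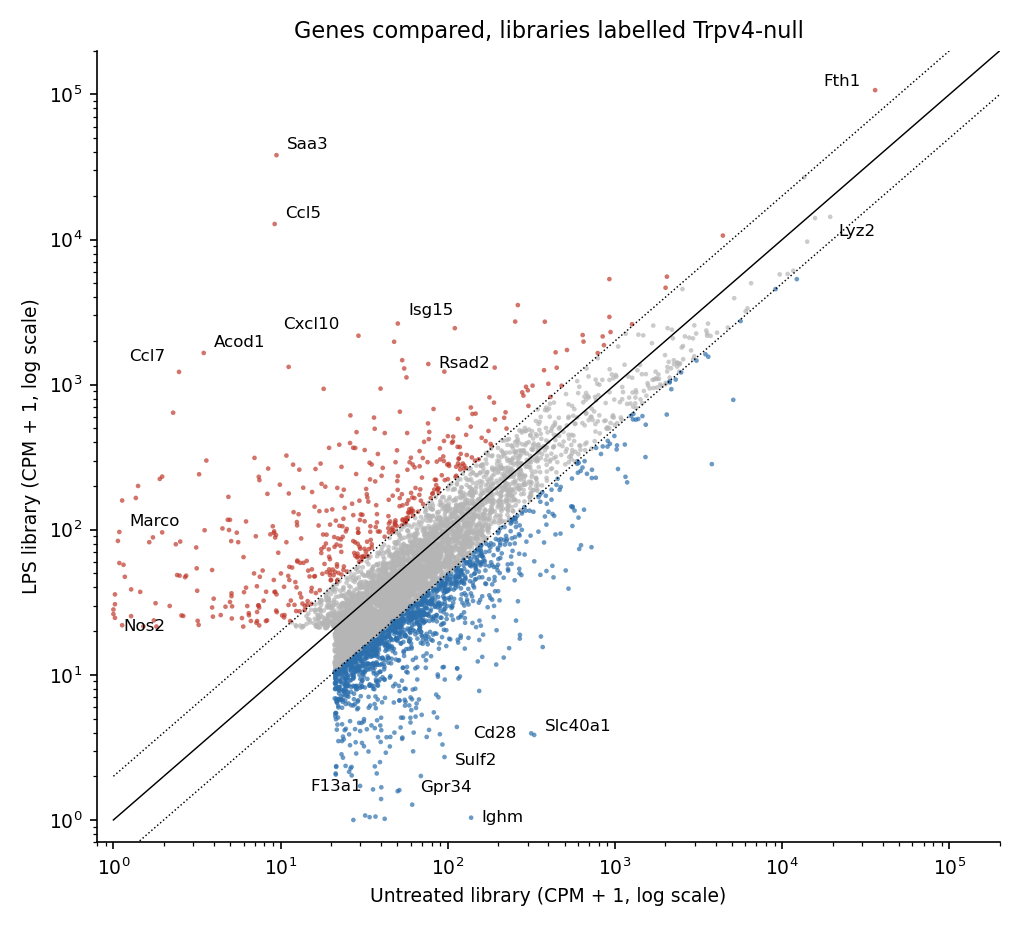
Level of each of the 6340 genes compared in the untreated library (x axis, CPM + 1, log scale) and in the LPS library (y axis, CPM + 1, log scale), both labelled Trpv4-null. Red points are at least 2-fold higher after LPS (463), blue points at least 2-fold lower (1348) and grey points between; the solid line marks equal levels and the dotted lines 2-fold. Saa3 and Ccl5 lie farthest above the line, and Ighm, Slc40a1 and Cd28 lie farthest below it.

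The largest ratios were upward. At least 64-fold higher were 16 genes, and at least 64-fold lower 3. Of 5430 genes that could be compared within each of 8 clusters named by the authors, 209 (3.85%) were at least 2-fold higher in every cluster and 596 (11.0%) lower in every cluster, and 1 gene was 2-fold higher in one cluster and lower in another. With median-of-ratios size factors these counts were 514 and 210. Within single clusters the shares of genes at least 2-fold higher and lower stayed near those of the whole libraries. They were 8.10% and 21.1% in Cd74+, 7.87% (491 of 6239) and 1245 of 6239 genes in High_Apoe and 7.56% and 18.6% in High_Lpl_Fabp4+. In Il1b+_Cxcl2+ they were 7.45% (470 of 6311) and 1454 of 6311 genes, in Macrophage 7.41% and 21.7%, in Proliferating 7.49% and 20.6% and in Tmem176+ 8.54% and 23.1%. Ifit1bl1+_Cmpk2+ had the lowest share higher (6.30%) and the highest share lower (23.8%).

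The promoters of the genes with the highest ratios are shown first, because several hold letters matched by the factors of the pathways above. Of the 25 genes with the highest log2 ratios 21 had an entry in the RefSeq promoter table (GRCm38.p6, the assembly that mm10 names). The 250 bases before the annotated start were searched on both strands for 6 patterns, chosen with the values known, where N is any base. The NF-kB pattern was GGGA and TTCC with any pair of bases between them, and a shorter form lacked the A. The ISRE, the element of interferon-activated factors, was GAAA repeated with any pair of bases between the copies. The others were TGANTCA (AP-1), TTCNNNGAA (GAS) and TTNNGNAA (C/EBP). The promoters that hold an ISRE or the longer NF-kB pattern follow in full, 5′ to 3′ on the gene's strand, with the matches in capitals.
Saa3 (chr7:46715677-46715926, minus strand): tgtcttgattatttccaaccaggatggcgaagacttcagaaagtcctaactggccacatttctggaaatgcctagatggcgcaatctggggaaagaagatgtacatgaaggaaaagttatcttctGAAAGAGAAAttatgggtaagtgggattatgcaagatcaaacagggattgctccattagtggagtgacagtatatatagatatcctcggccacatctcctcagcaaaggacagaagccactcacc
Cxcl10 (chr5:92348890-92349139, minus strand): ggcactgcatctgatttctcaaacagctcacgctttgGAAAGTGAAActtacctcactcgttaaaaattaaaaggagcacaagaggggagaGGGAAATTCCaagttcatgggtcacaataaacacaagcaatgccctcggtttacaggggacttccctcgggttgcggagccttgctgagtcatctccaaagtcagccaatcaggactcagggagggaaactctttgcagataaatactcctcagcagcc
Isg15 (chr4:156200819-156201068, minus strand): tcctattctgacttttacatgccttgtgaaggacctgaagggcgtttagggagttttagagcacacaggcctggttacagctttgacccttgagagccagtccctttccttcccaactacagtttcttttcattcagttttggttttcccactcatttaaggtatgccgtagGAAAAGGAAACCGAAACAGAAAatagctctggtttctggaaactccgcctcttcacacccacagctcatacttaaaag
Ifi205 (chr1:174031756-174032005, minus strand): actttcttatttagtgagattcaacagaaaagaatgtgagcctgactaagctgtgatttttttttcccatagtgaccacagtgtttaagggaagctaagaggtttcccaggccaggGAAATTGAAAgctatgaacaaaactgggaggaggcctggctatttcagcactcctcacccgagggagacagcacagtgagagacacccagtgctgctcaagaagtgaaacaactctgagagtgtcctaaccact
Cxcl3 (chr5:90785851-90786100, plus strand): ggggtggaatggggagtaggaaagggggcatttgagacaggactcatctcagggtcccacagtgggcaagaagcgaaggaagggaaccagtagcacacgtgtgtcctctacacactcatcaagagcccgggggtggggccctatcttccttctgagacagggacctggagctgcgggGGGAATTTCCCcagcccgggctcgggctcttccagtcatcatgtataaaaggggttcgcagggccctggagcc

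In the Saa3, Ifi205 and Isg15 promoters the capitals mark ISRE matches, 3 overlapping ones for Isg15. Cxcl10 has an ISRE match first and an NF-kB match after it, and Cxcl3 has 2 overlapping NF-kB matches, 1 on each strand. The ISRE pattern was in 4 of the 21 promoters and the longer NF-kB pattern in 2 (9.52%), against 3.85% and 1.71% of the promoters of all genes compared. Among antiviral interferon-stimulated genes the ISRE pattern was in 17 of 40 promoters (42.5%). The C/EBP pattern was in 13 of the 21 (61.9%) and in 12 of the 18 promoters (66.7%) found for the 25 lowest genes, against 33.1% of all genes compared, so it was as frequent at both ends. The shorter NF-kB pattern was in 2 of the 21 (9.52%, against 7.69%), AP-1 in 4 (against 5.53%) and GAS in 2 (9.52%, against 6.69%). A match is a description of letters and not a site.

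Acute-phase and host defence genes included the largest ratio. Saa3, an acute-phase serum amyloid, had 397 UMIs untreated (8.45 CPM) and 4159812 after LPS (38153 CPM), a ratio of 4517 (4094 to 4996). It made up 3.82% of the UMIs of the LPS library. Saa3 UMIs were found in 6561 of 6565 LPS cells, and in 87 untreated cells. Haptoglobin (Hp) stood at 1.51 and 81.9 CPM, and ceruloplasmin (Cp), a copper-carrying ferroxidase, at 6.11 and 89.2 CPM. The complement factor Cfb had 3 UMIs untreated and 9026 after LPS (82.8 CPM), a ratio of 1297 (444 to 6290), and complement C3 stood at 14.4 and 181 CPM.

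The levels of several genes known from neutrophils rested on very few cells. S100a9 stood at 153 and 6.75 CPM, but 10 of the 5485 untreated cells held 99.6% of its untreated UMIs, and 1 LPS cell held 722 of 736. Ngp had 1233 untreated UMIs, 99.6% of them in 10 cells, and 0 after LPS. Lcn2, a siderophore-binding protein that macrophages also make, had 98.9% of its 823 untreated UMIs in 10 cells, but its 21491 UMIs after LPS were spread over 2715 cells. Without the 10 untreated and 1 LPS cells that held 50 or more UMIs of 5 neutrophil genes (a limit chosen after the values were seen), the log2 ratio of Lcn2 was 7.37 in place of 3.42 and that of Wfdc21 4.66 in place of 1.99. That of S100a8 was 1.73 in place of -2.52, that of S100a9 -0.56 in place of -4.31, and that of Ngp -0.17 in place of -4.77. S100a8, S100a9 and Ngp are, with Camp and Ltf, the 5 genes by which those cells were picked. Their changes are thus built into that choice, while Lcn2 and Wfdc21 were not used in it.

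Chemokines, secreted proteins that guide leukocytes, formed the list with the highest median. Of 14 compared, 12 were at least 2-fold higher and none lower, with a median log2 ratio of 5.10 (5.58 with median-of-ratios size factors), beside -0.42 for all genes. Ccl5 had 386 UMIs untreated (8.21 CPM) and 1395580 after LPS (12800 CPM), a ratio of 1559 (1411 to 1727). Among those that recruit monocytes, close relatives that may share counts, Ccl2 had 10.2 CPM untreated and 1324 after LPS, Ccl7 had 1.47 and 1223 CPM and Ccl12 had 1.28 and 640 CPM. Cxcl10, which draws in activated T cells, stood at 28.2 and 2173 CPM. Ccl4 stood at 38.6 and 938 CPM and Cxcl2, which recruits neutrophils, at 33.0 and 289 CPM. In 10 of the 13 chemokines that could be compared within clusters, the LPS level was at least 2-fold higher in every cluster.

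Inflammatory cytokines were fewer. Of 18 on the list that were in the table, 6 could be compared, and 3 of them were at least 2-fold higher, beside 7.30% of all genes. They were Il1a (1 UMI untreated and 3800 after LPS), Il1b (7.43 and 263 CPM) and Tnf (3.91 and 98.6 CPM). Il6 stayed below the level minimum, with 2 UMIs untreated and 148 after LPS (1.36 CPM). Of 9 restraining cytokines and receptors, 3 reached 2-fold upward and 4 downward by total, beside 7.30% and 21.3% of all genes. Their median log2 ratio was -0.55 by total and 0.06 with median-of-ratios size factors, so no direction is given. Il1rn, the secreted antagonist of the IL-1 receptor, stood at 5.98 and 312 CPM, and the IL-18 binding protein Il18bp at 16.1 and 133 CPM. The TGF-beta receptor genes Tgfbr1 (69.3 and 17.4 CPM) and Tgfbr2 (91.9 and 40.9 CPM) and the IL-10 receptor gene Il10ra (157 and 66.8 CPM) were more than 2-fold lower by total. Of the 4 genes downward on this list, 1 remained at least 2-fold lower with median-of-ratios size factors.

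The genes of the sensing machinery lay on both sides of 0. Of 19 TLR4 pathway genes compared, 4 reached 2-fold upward and 1 downward by total, beside 7.30% and 21.3% of all genes. With median-of-ratios size factors 6 and 0 did, beside 15.3% and 8.01%. More of the list was thus upward, and less downward, than of all genes. Their median log2 ratio was -0.30 by total and 0.30 with median-of-ratios size factors, so no direction is given for the median. Those upward by total were Irak3 (31.8 and 175 CPM), an inhibitory kinase-like protein, Ikbke, Myd88 and Cd180, and downward Irak4 (46.7 and 21.1 CPM). Other pattern receptors stood apart from this list: 12 of 18 were at least 2-fold higher and 1 lower, with a median of 1.73. The formyl peptide receptors Fpr1 (0.404 and 199 CPM) and Fpr2 (0.894 and 223 CPM), which detect bacterial and mitochondrial peptides, led them. The C-type lectin Clec4e (Mincle), which recognises mycobacterial and fungal glycolipids, stood at 52.3 and 1473 CPM.

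NF-kB genes and feedback regulators were mostly on the higher side. Of 10 NF-kB subunits and IkB proteins 3 were at least 2-fold higher and 1 lower (median 0.71), beside 7.30% and 21.3% of all genes. With median-of-ratios size factors 7 were higher and 0 lower, beside 15.3% and 8.01%. The inhibitor Nfkbia stood at 107 and 437 CPM, the subunit Nfkb2 at 39.1 and 70.9 CPM and the subunit Rel at 58.9 and 28.4 CPM. Of 14 feedback regulators 8 were at least 2-fold higher and none lower by total (median 1.58), and 12 and 0 with median-of-ratios size factors. Among them Socs1 (1.72 and 47.2 CPM) and Socs3 (12.7 and 194 CPM) restrain cytokine signalling, Usp18 (11.9 and 258 CPM) restrains the interferon receptor, and Tnfaip3 (A20, 10.7 and 53.9 CPM) restrains NF-kB.

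Interferon-stimulated genes formed the broadest block. Of 52 antiviral members compared 50 were at least 2-fold higher (median 2.70, or 3.27 with median-of-ratios size factors). The other two were Samd9l, just under 2-fold at 75.8 and 152 CPM, and Ifi27, which was lower at 125 and 14.2 CPM (log2 -3.06). Both are named after their values were seen. Isg15, a ubiquitin-like modifier, had 2314 UMIs untreated (49.2 CPM) and 287452 after LPS (2636 CPM). Irf7, the regulator that amplifies interferon genes, stood at 53.9 and 1292 CPM. All 10 interferon-inducible GTPases and 9 of 11 IFI200 family members, several of them DNA sensors, were at least 2-fold higher (medians 2.58 and 3.48). Members of both families, and the Slfn and Ifit genes, are close copies that may share counts.

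**Figure D2:**
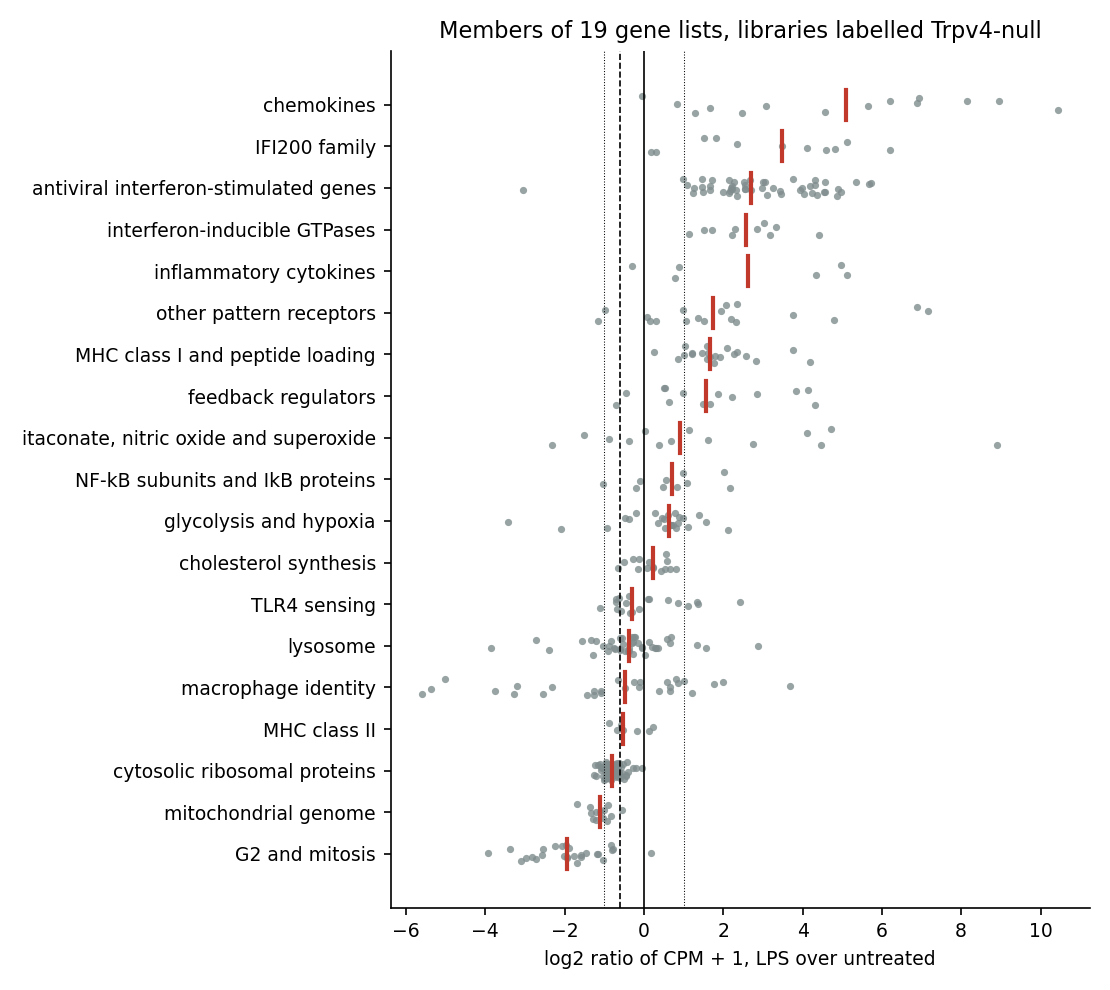
Log2 ratio of CPM + 1, LPS over untreated, by library total (x axis), for each member compared (grey points) of 19 gene lists (y axis), with the list median in red. The solid line is at 0, dotted lines at 2-fold, and the dashed line at -0.59 is where 0 would lie with median-of-ratios size factors: medians between the solid and dashed lines, such as that of the TLR4 list (-0.30), change sign with the scaling. Chemokines (median 5.10) lie highest and genes of G2 and mitosis (-1.93) lowest.

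Antigen presentation split by class. Of 21 genes of MHC class I and peptide loading 19 were at least 2-fold higher and none lower (median 1.68). The peptide transporter Tap1 stood at 47.7 and 291 CPM, the proteasome activator Psme2 at 114 and 580 CPM, and H2-T22 at 75.1 and 540 CPM. None of 7 MHC class II genes was 2-fold higher or lower (median -0.54 by total, 0.07 with median-of-ratios size factors). H2-Ab1 stood at 49.7 and 58.0 CPM and the invariant chain Cd74 at 244 and 168 CPM. Among costimulatory and checkpoint genes, Cd40 (4.06 and 82.5 CPM) and Cd274, which encodes PD-L1 (37.2 and 332 CPM), were higher and Cd83 (27.3 and 1.87 CPM) lower.

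Metabolic genes known from activated macrophages had some of the largest ratios. Acod1, which makes itaconate, had 116 UMIs untreated and 180150 after LPS (2.47 and 1652 CPM). Nos2, whose enzyme makes nitric oxide in activated macrophages, was counted 0 times untreated and 2754 times after LPS (25.3 CPM), at least 396-fold higher against a floor of 3 UMIs. Genes that supply it were higher as well, with Ass1, an enzyme of arginine recycling, at 4.47 and 94.4 CPM and Gch1, needed for its cofactor, at 19.4 and 137 CPM. Mitochondrial superoxide dismutase, Sod2, stood at 109 and 2448 CPM. Catalase (Cat), which breaks down hydrogen peroxide, differed in the other direction at 267 and 52.8 CPM. Of 24 genes of glycolysis and hypoxia 4 were at least 2-fold higher and 2 lower by total, beside 7.30% and 21.3% of all genes. With median-of-ratios size factors 16 were higher and 2 lower, beside 15.3% and 8.01%.

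Iron and lipid handling genes lay on both sides. Fth1, the ferritin heavy chain that stores iron and the most abundant transcript of both libraries, made up 3.60% of UMIs untreated and 10.7% after LPS, while the light chain Ftl1 made up 1.57% and 1.41%. Ferritin genes have many close pseudogene copies, with which they may share counts. Taking Fth1 out of the library totals gave 522 genes higher and 1128 lower. The iron exporter ferroportin, Slc40a1, had 15399 UMIs untreated (328 CPM) and 311 after LPS (2.85 CPM), a ratio of 0.00871 (0.00776 to 0.00974). It was lower in each cluster, by log2 ratios of -6.97 to -5.88. Heme oxygenase, Hmox1, stood at 216 and 590 CPM and transferrin, Trf, at 368 and 14.5 CPM. Apolipoprotein E (Apoe), a lipid carrier, stood at 5095 and 784 CPM and the scavenger receptor Msr1 at 50.7 and 650 CPM. The metallothioneins Mt1 (625 and 77.2 CPM) and Mt2 (93.7 and 10.3 CPM), which bind zinc, were lower.

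Prostaglandin genes diverged within the pathway. Ptges, the last enzyme of prostaglandin E2 synthesis, stood at 0.957 and 231 CPM. Hpgd, which degrades prostaglandins, had 1554 UMIs untreated and 5 after LPS (33.1 and 0.0459 CPM), and Ptgs1, the constitutive cyclooxygenase, stood at 73.7 and 2.73 CPM. Slco2b1, an organic anion transporter, had 1924 and 2 UMIs, a ratio of 0.000448 (5.42e-05 to 0.00162).

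The lowest ratio of all genes compared was that of Ighm, the immunoglobulin mu heavy chain. It had 6432 UMIs untreated (137 CPM), in 2673 cells, and 4 UMIs after LPS (0.0367 CPM). Its untreated UMIs were thus spread over many cells, while the other 5 B cell markers in the table stayed below 20 CPM in both libraries. Cd28, known as a T cell costimulatory receptor, had 14775 UMIs in 4583 untreated cells and 322 UMIs in 273 LPS cells. Gpr34, a lysophosphatidylserine receptor, stood at 60.2 and 0.275 CPM, and the mannose receptor Mrc1 at 506 and 51.4 CPM. Another macrophage identity gene, Fcgr1, which encodes the high-affinity IgG receptor, was higher, at 94.3 and 1228 CPM. Of 29 identity genes, 5 reached 2-fold upward and 13 downward by total, beside 7.30% and 21.3% of all genes. With median-of-ratios size factors 11 and 8 did, beside 15.3% and 8.01%.

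Cell cycle genes differed by phase. Of 27 genes of G2 and mitosis 23 were at least 2-fold lower and none higher (median -1.93, or -1.35 with median-of-ratios size factors, which left 18 lower). The centromere histone Cenpa stood at 232 and 14.3 CPM and Ccnb2 at 64.7 and 8.29 CPM. Within the cluster named Proliferating, which held 542 untreated and 644 LPS cells, the median of the list was -1.82. S phase genes did not share this: of 11 compared 2 were at least 2-fold higher and none lower (0.41), beside 7.30% and 21.3% of all genes. With median-of-ratios size factors 6 of the 11 S phase genes were higher, beside 15.3%. The other 18 of the 29 on that list were below the level minimum, against 3 of 30 for G2 and mitosis. The S phase median was 1.13 within Proliferating and -0.03 to 0.31 in the other clusters. These cluster medians include members below the level minimum within a cluster, whose ratios the pseudocount draws toward 0. Only 5 of the 11 S phase genes and 5 of the 27 of G2 and mitosis passed that minimum in every cluster. A difference between clusters is therefore not read from these medians. The D-type cyclins, which start the cycle, were higher for Ccnd2 (2.15 and 53.2 CPM) and Ccnd1 (6.81 and 51.4 CPM), and the inhibitor Cdkn1b was lower (70.4 and 12.5 CPM).

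Transcripts of the mitochondrial genome and of ribosomal proteins lay below 0 by total, with 9 of 13 mitochondrial genes and 11 of 79 ribosomal protein genes at least 2-fold lower (ribosomal median -0.80). The ribosomal count is a smaller share than the 21.3% of all genes. With median-of-ratios size factors the medians were -0.49 and -0.19, and 1 mitochondrial and 0 ribosomal genes were lower, and per cell they were -0.15 and 0.15, so the direction for ribosomal proteins turns. The mitochondrial share of a cell's UMIs, given above, moves with the first list.

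The share of responding cells was read from 2 sums of 30 genes each after thinning every cell at random to 3000 UMIs, which left out 209 untreated and 93 LPS cells below that depth. Responding means above a limit of such a sum. The genes of both sums were chosen with earlier results of these data known, so the shares describe a response and do not test it. UMIs from free RNA were not measured, since none of the annotated clusters is of cells known not to express these genes, and their part in the shares was not tested. The limit was the 99th percentile of untreated wild-type cells, which are on neither side of the comparison. Above the inflammatory limit of 12 UMIs were 42 of 5276 untreated cells (0.796%, exact 95% interval 0.574% to 1.07%) and 6460 of 6472 LPS cells (99.8%, with a lower bound of 99.7%). The median cell had 1 and 133 UMIs, and 12 LPS cells did not pass. Saa3 gave 74.1% of the UMIs of this sum, with 16 UMIs at the 10th percentile of LPS cells and 93 at the median, and without it 97.6% of LPS cells passed. The 42 untreated cells above the limit included 27 of the cluster named Il1b+_Cxcl2+.

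The interferon sum of LPS cells lay closer to its limit. Above 32.4 UMIs were 81 of 5276 untreated cells (1.54%, 1.22% to 1.90%) and 5026 of 6472 LPS cells (77.7%, 76.6% to 78.7%), with 412 LPS cells at or within 2 UMIs below the limit and 426 within 3 above it. Of these 81 untreated cells 79 belonged to the cluster Ifit1bl1+_Cmpk2+, as did 63 of the 64 untreated wild-type cells above the limit. The share depends on the limit. With the 99th percentile of the untreated library labelled Trpv4-null as the limit it was 50.5%, and with a stricter wild-type limit, which 0.1% of those cells exceed, 4.47%. Both limits were passed by 5016 LPS cells (77.5%), the inflammatory one alone by 1444 (22.3%), the interferon one alone by 10 and neither by 2.

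**Figure D3:**
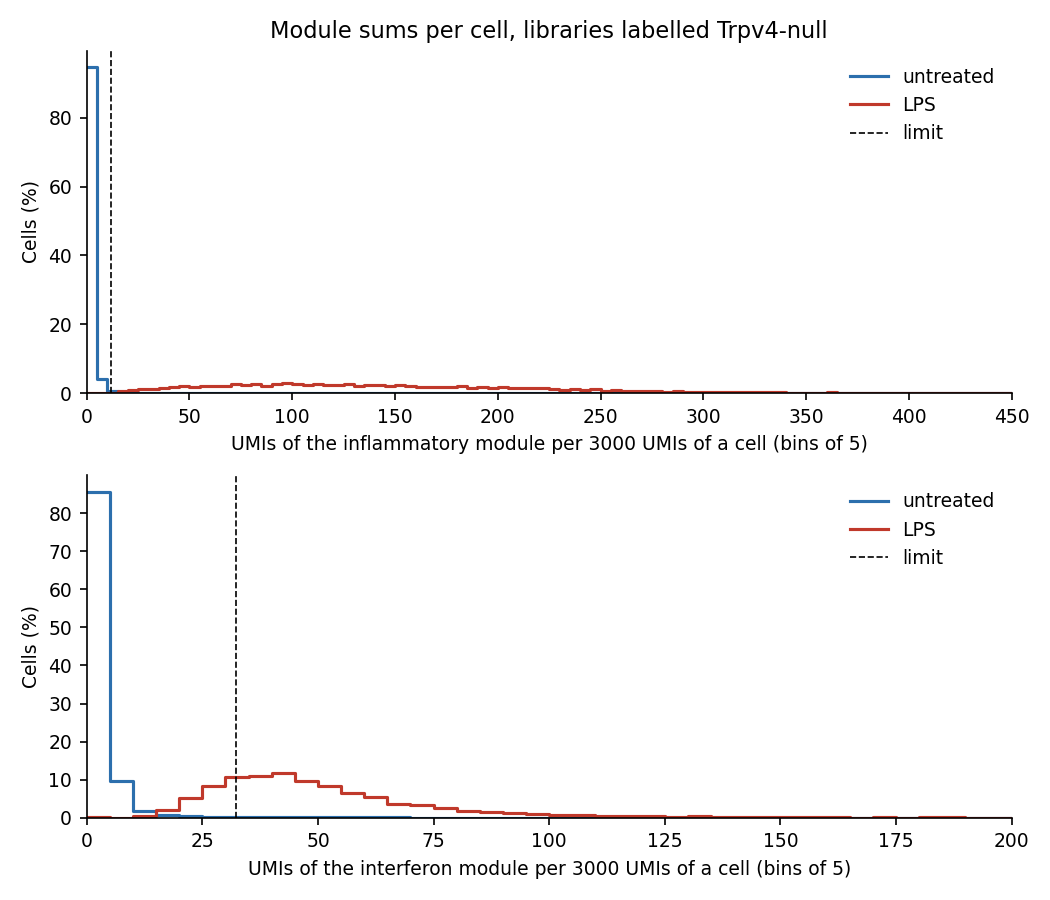
Share of cells (y axis, %) by the UMIs of the inflammatory (top) and interferon (bottom) sums per 3000 UMIs of a cell (x axis, bins of 5), untreated in blue and after LPS in red, both labelled Trpv4-null. The dashed line is the limit: 99.8% of LPS cells lie above it at the top, where the distributions barely meet, and 77.7% at the bottom, where the limit runs through the lower part of the LPS distribution.

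By cluster the inflammatory share ranged from 99.5% to 100% of LPS cells. The interferon share ranged from 68.5% in Proliferating (434 of 634 cells) to 100% in Ifit1bl1+_Cmpk2+ (713 of 713). The clusters were built by the authors from the same counts, so these values describe them and test nothing.

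The cluster Ifit1bl1+_Cmpk2+ stood apart before LPS. It held 179 of 5485 untreated cells (3.26%) but 79.2% of the untreated UMIs of Ifit1, 78.2% of those of Rsad2, which encodes the antiviral enzyme viperin, and 87.7% of those of Cxcl10. Its Ifit1 level was 1215 CPM untreated and 2227 CPM after LPS, where the cluster High_Apoe had 6.68 and 904 CPM. The antiviral list had a median log2 ratio of 0.66 in this cluster and of 2.85 to 3.19 in the other 7. Whole-library ratios of these genes are therefore smaller than those of most cells: Ifit1 had a log2 ratio of 4.31 in the whole libraries and of 5.63 to 6.88 in those 7 clusters. Saa3 differed from this pattern, with 8.06% of its untreated UMIs in that cluster and a log2 ratio of 10.44 there.

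**Figure D4:**
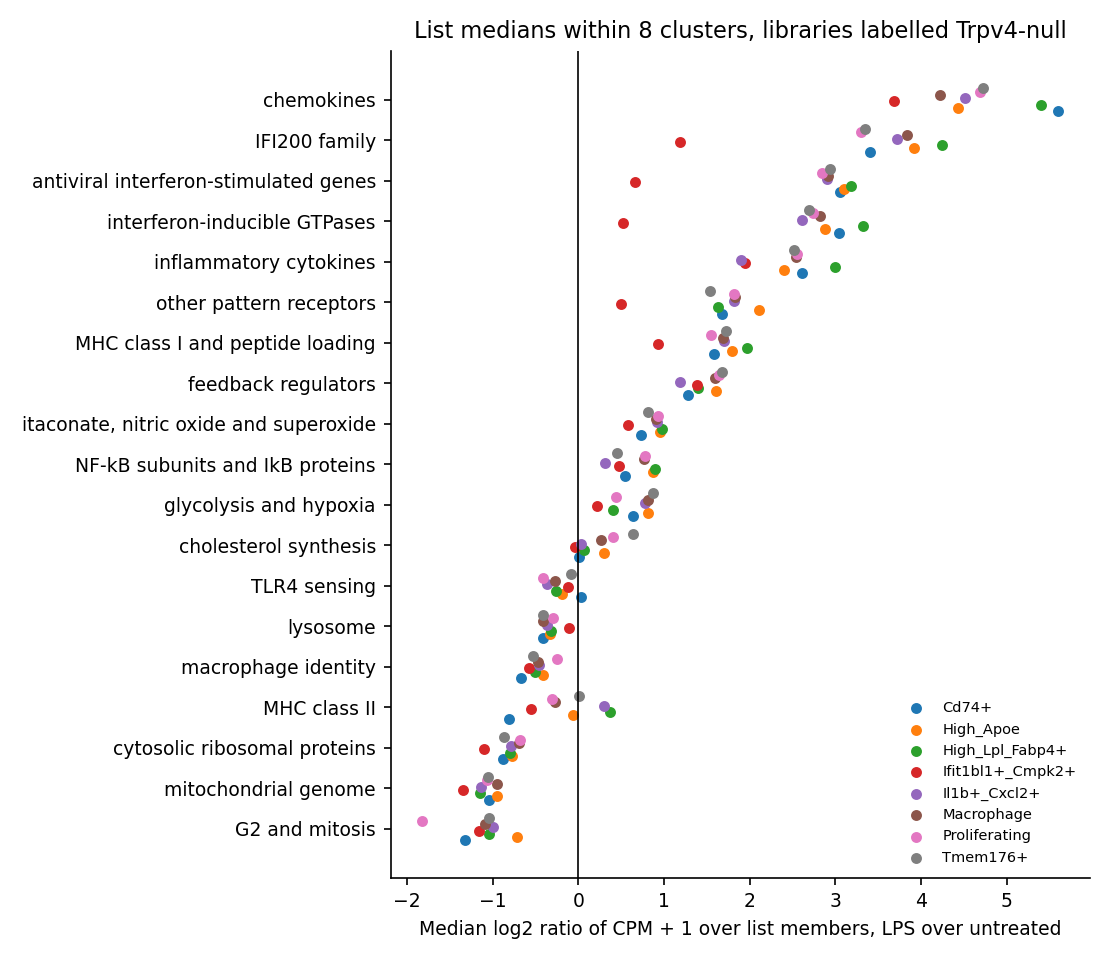
Median log2 ratio of CPM + 1, LPS over untreated, by library total (x axis) over the members of 19 gene lists (y axis) within each of 8 clusters (colours). The cluster Ifit1bl1+_Cmpk2+ (red) lies at 0.66 for antiviral interferon-stimulated genes, where the other 7 clusters lie between 2.85 and 3.19. Medians near 0 change sign with the scaling, as given in the text. Medians include list members below the level minimum within a cluster.

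Genes among the 25 highest ratios differed in how many cells had a UMI of them, which also depends on the level of each gene. Acod1 UMIs were in 6536 of 6565 LPS cells and Isg15 UMIs in 6531, counts that may include free RNA. At the other end, Marco, a scavenger receptor that binds bacteria, had 10420 UMIs after LPS and 4 untreated, but its UMIs came from 709 LPS cells (10.8%), and the 10% of cells with most of it held 99.5%. At 3000 UMIs per cell 5.86% of LPS cells had a Marco UMI, while the same number of UMIs spread evenly would have reached 24.5%. The 8 genes among the 25 highest with a thinned share below 20%, a limit chosen after the values were seen, were Marco, Cxcl3, Serpinb2, H2-M2, Timp1, Slfn4, Ccl8 and Cfb. Their observed share ran from 0.239 times the even share for Marco to 0.921 times for Cfb, so a low share alone does not mark a gene as restricted. Cxcl3 UMIs were in 668 LPS cells and those of Serpinb2, a protease inhibitor, in 990, and the 10% of cells with most held 99.8% and 94.7%.

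The restricted genes did not share one set of cells. Of 441 thinned LPS cells with a Serpinb2 UMI 30.8% had an H2-M2 UMI, against 9.41% of all thinned LPS cells, and 19.7% had a Cxcl3 UMI, against 4.45%. Of 379 cells with a Marco UMI 3.17% had a Serpinb2 UMI, against 6.81% of all cells, and 8.18% had one of H2-M2. These are shares of cells in 1 library, and deeper or larger cells were brought to the same number of UMIs.

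By cluster, Marco was even, with 5.05% to 7.02% of LPS cells in all 8. Cxcl3 was in 18.1% of Cd74+ cells (13.4% to 23.7%), 8.74% of Il1b+_Cxcl2+ cells (7.31% to 10.3%) and 0.708% of the cells of the cluster named Macrophage (0.366% to 1.23%). H2-M2, a nonclassical MHC class I gene, ran from 1.40% in Tmem176+ to 58 of 232 cells in Cd74+ (19.6% to 31.1%), and Serpinb2 from 2.11% to 16.4% in the same pair of clusters. Ccl8 and Slfn4 were instead most frequent in Ifit1bl1+_Cmpk2+, with 178 of 713 cells (21.8% to 28.3%) and 174 of 713 (21.3% to 27.7%).

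**Figure D5:**
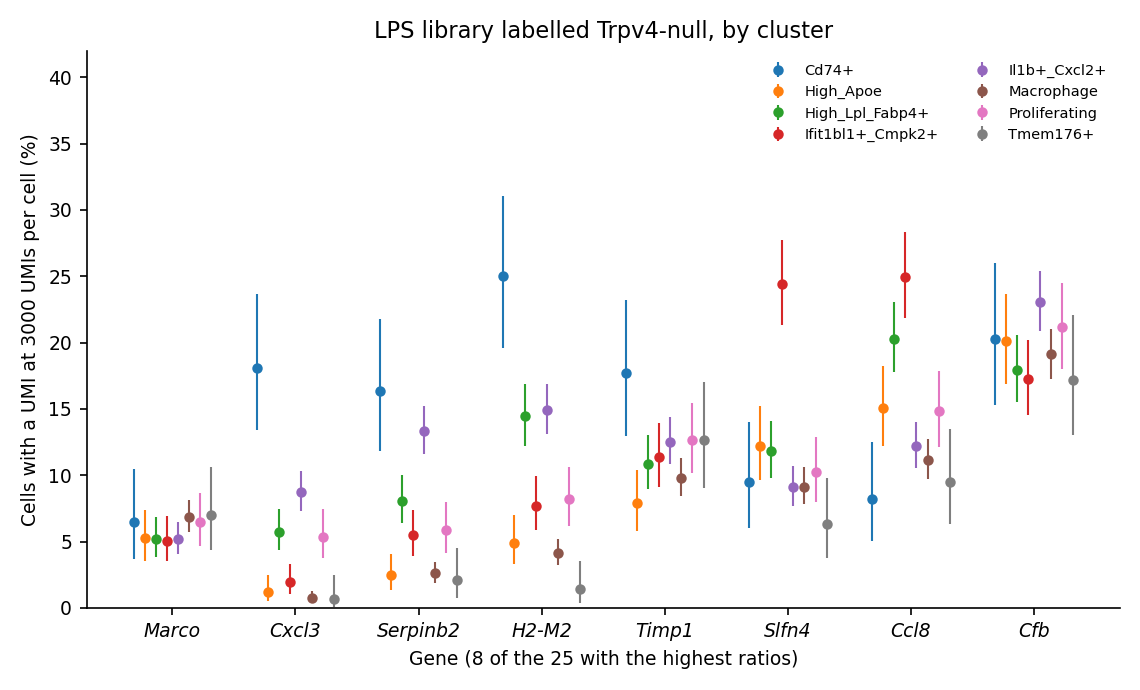
Share of LPS cells labelled Trpv4-null with a UMI at 3000 UMIs per cell (y axis, %) for 8 of the 25 genes with the highest ratios (x axis), in each of 8 clusters (colours). Bars are exact 95% binomial intervals (counting error only). Marco lies between 5.05% and 7.02% in all clusters, while Cxcl3 and Serpinb2 reach 18.1% and 16.4% in Cd74+, where H2-M2 is also at its highest.

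Set beside wild type, most genes at least 2-fold higher or lower in one genotype were so in the other. Of 6201 genes compared in both genotypes, 401 were at least 2-fold higher in both, 88.9% of the 451 higher in the libraries labelled Trpv4-null and 93.7% of the 428 higher in wild type. At least 2-fold lower in both were 1042, 81.0% of 1287 and 94.4% of 1104, and none was 2-fold in opposite directions. In wild type 6.90% of the 6332 genes compared were higher and 17.7% lower. Both limits of the sums of 30 genes were passed by 77.5% of LPS cells labelled Trpv4-null and by 58.8% of wild-type LPS cells. The interferon limit runs through both distributions, with 739 wild-type LPS cells at or within 2 UMIs below it and 727 within 3 above it, and the share labelled Trpv4-null is lower under the other limits given above. At the end where the log2 ratio labelled Trpv4-null lay above that of wild type stood Dusp1, Rgs1, Fos, Fosb, Egr1, Id3, Ccnd1, Ccl7, Ccl4 and Cxcl2, with differences of log2 ratios from 1.44 (Egr1) to 1.99 (Rgs1). Such a difference need not be a rise after LPS. Of 14 immediate-early genes compared in the libraries labelled Trpv4-null, 0 were at least 2-fold higher and 3 lower by total, beside 7.30% and 21.3% of all genes. With median-of-ratios size factors 1 was higher and 1 lower, beside 15.3% and 8.01%. The median log2 ratio of these genes was -0.58 by total and 0.02 with median-of-ratios size factors, so no direction is given. At the other end stood S100a9, S100a8, Wfdc21, Mt2, Kansl2, Bmf, Ly6a, Fh1, Cd33 and Tmem37, from -2.13 (S100a9) to -0.83 (Tmem37), and the values of S100a9, S100a8 and Wfdc21 move without the neutrophil-marker cells, as given above. Fos, an immediate-early transcription factor, stood at 185 and 134 CPM here and at 467 and 86.1 CPM in wild type. By library total Fos was thus lower after LPS in both, with the larger fall in wild type. Its fall labelled Trpv4-null was smaller in log2 than the 0.59 by which median-of-ratios size factors moved the median gene. No direction is therefore given for Fos in the libraries labelled Trpv4-null. With 1 library per group these differences could not be tested, and genotype and library cannot be told apart.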

How the data were processed

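Single-cell counts of 4 libraries were used, 1 per condition. The authors deposited whole-number UMI counts per gene and cell, not normalized, for 14432 genes and 27366 cells. They also deposited a cell annotation that gives, per the file headers, the library, the cluster name and the fraction of mitochondrial UMIs of each cell. The authors used mm10, R 4.2, Seurat 4 and Cell Ranger 3.1.0, per the submitters' processing notes. Their filters, doublet removal and use of strand are not stated there, and no doublet caller was run here. In all 27366 cells the counts added up to the annotated total. Overlapping and closely related genes may share counts.

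UMIs were summed per library, and per cluster with at least 100 cells in both libraries (High_Btg1, with 3 and 23 cells, was left out). They were scaled to CPM by the total and compared as log2 ratios with a pseudocount of 1 CPM. Intervals are exact Poisson, conditional or Clopper-Pearson at 95% and cover counting error only. A ratio against 0 UMIs uses a floor of 3 UMIs. Wild-type libraries entered the scaling factors and the limits of the sums.

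Named genes were the 25 highest and 25 lowest ratios, up to 6 members with the largest ratios of each of 42 lists, and the genes of both sums of 30. Added to these were the 10 genes with the widest range over clusters among those at least 2-fold apart. The rest were 10 genes at each end of the change in thinned share and of the difference from wild type, the 10 most abundant genes of each library, and Trpv4. Unnamed gene models were skipped. The members, lists and rules were chosen with earlier results of these data known.

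Ratios were tested on simulated counts for LPS against untreated (6055 genes): 100% of genes set to 4-fold, 0% of those set to 1.5-fold and 0 of the 5855 left unchanged passed 2-fold. The simulated counts held counting error alone, drawn around the untreated profile. They had no shift in composition and no variation between libraries or cells. They therefore check the arithmetic and give no rate of false calls for the real libraries. Values were computed with pandas 2.3.3, numpy 2.4.6 and scipy 1.17.1 in Python 3.11.15 and drawn with matplotlib 3.10.9, and edgeR 4.0.16 in R 4.3.3 gave the TMM factors alone. Alternatives were other scalings, pseudocounts, minima, cluster weights, thinning depths and limits, and cells left out.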

Additional observations from a re-analysis of the deposited data

Results flagged for a closer look

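Among named genes of at least 20 CPM in either library labelled Trpv4-null, 2 had LPS ratios on opposite sides of 0 in the libraries labelled Trpv4-null and in wild type, with 2-fold or more in either genotype. Dusp1, a phosphatase that switches off MAP kinases, stood at 111 and 158 CPM labelled Trpv4-null (log2 0.51) and at 326 and 119 CPM in wild type (log2 -1.44), a difference of 1.95. Rgs1, which dampens G protein signalling, stood at 54.4 and 76.4 CPM (log2 0.48) and at 119 and 41.4 CPM (log2 -1.50), a difference of 1.99. The difference was not tested, since each condition is 1 library. In both genes the untreated wild-type library held the highest of the 4 values.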

How the results depend on the processing

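Genes at least 2-fold higher and lower were 463 and 1348, and in every cluster 209 and 596. Median-of-ratios size factors gave 972 and 508 (in every cluster 514 and 210), TMM factors 930 and 522 (495 and 220) and, added after seeing the data, UMIs per cell 1702 and 318 (911 and 133). A minimum of 5 CPM gave 2172 lower, no minimum 704 higher and 2568 lower, and a minimum of 50 CPM in each cluster 332 lower in every cluster. Pseudocounts of 0.1 and 5 CPM, equal cluster weights, leaving out the Proliferating cluster, the neutrophil-marker cells or the cells with shared barcodes, and totals without Fth1, kept the counts of the whole libraries within 1.5 times. These were not run for the counts in every cluster. The share of LPS cells above the inflammatory limit was 94.7% (untreated 0.133%) with the limit that 0.1% of wild-type cells exceed, 99.5% at 1500 UMIs, 99.92% at 5000 UMIs and 97.6% without Saa3. The interferon share was 4.47% (untreated 0.114%) with that stricter limit, 50.5% (untreated 0.986%) with the limit from the untreated library labelled Trpv4-null, 79.5% at 1500 UMIs, 74.3% at 5000 UMIs and 66.8% without Isg15. The median of costimulation and checkpoint genes turned from 2.09 to -0.11 at a minimum of 5 CPM, where more members enter. S100a8 turned from -2.52 to 1.73 without the neutrophil-marker cells, which were picked partly by S100a8 itself. No paired analysis was possible because each condition is 1 library. Depth limits genes near 1 CPM, whose ratios depend on the pseudocount.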
